A study of Mus musculus with 15 samples.

Results

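Megakaryocyte and erythroid lineage genes were followed through 15 arrays of mouse myeloid cells. The set names 9 genes: Itga2b, Pf4, Gp9, Gp1bb and Vwf of megakaryocytes and platelets, and Epor, Klf1, Gata1 and Car1 of red cell precursors. Each gene was read from a probe set listed with its symbol alone, which gave 8 of the 9 a value among 22180 genes in all. Gp1bb, a subunit of the platelet von Willebrand factor receptor, is listed only on a probe set that it shares with Septin5, so it has no value here. Of the 8 measured genes, 6 passed the filter on low signals and were tested with 14822 genes in all. Klf1 and Gata1 did not pass and are described by their signals.

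The arrays fall into 5 groups of 3, with 1 array per sample and no age given in the sources used here. The groups coded RB and GFW are both C57Bl/6 mice given G-CSF, the cytokine used to mobilise progenitors. From their spleens CD11b+CD34+ cells were sorted after depletion of cells bearing CD4, CD8, Ly6G, B220 or Ter119, the last an antigen of red cell precursors. GFE cells are of the same origin and were kept for 3 days with SCF and Flt3 ligand, and GFK cells are the same sort from G-CSF-treated mice labelled iNOS knockout. MDSC are Ly6C+CD11b+ myeloid-derived suppressor cells grown out of C57Bl/6 marrow under a trio of cytokines (IL-13, G-CSF, GM-CSF), and their labels give the mice no G-CSF. RB and GFW differ only in the code of the title, and the title prefix is shared by GFW, GFK and GFE but not by RB or MDSC, so prefix and group cannot be told apart for those. Whether replicates are separate mice is not given, and the p-values then measure only the spread between these samples. Values are log2 RMA signals, and 3 arrays a group limit the precision.

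Megakaryocytes and red cells arise from a shared progenitor. GATA factors steer both paths: Gata2 is active in stem and early progenitor cells and gives way to Gata1 as cells commit, and Gata1 works with the cofactor Zfpm1 (FOG1) and with Tal1 and Lmo2. Klf1 then drives the red cell programme, Epor carries the survival signal of erythropoietin, and Itga2b, Pf4, Gp9 and Vwf supply the adhesive surface and granule content of platelets. In mice, mobilising cytokines also bring such progenitors to the spleen.

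Array-wide checks bear on these cells. The array medians lay between 5.52 and 5.72, and arrays of 1 group correlated at 0.973 to 0.991 over the genes tested. Nos2, the gene that encodes iNOS, was not lower on the GFK arrays (8.84, 8.91 and 8.92) than on the GFW arrays (8.09, 8.32 and 8.43), so GFK is called "labelled knockout" throughout. Which part of the transcript its probe set reads is not known here. Ly6g, whose product the sort depleted, stood at 12.15 to 12.21 on the GFW arrays and 6.19 to 6.38 on the RB arrays, and Cd34 at 6.99 to 7.39 and 5.79 to 5.99. Both sets carry the same labels, and the signals of these markers differed between them. Fewer cells of a type and less RNA per cell cannot be told apart in any of these samples.

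The start regions of 7 of the 9 named genes were found in the RefSeq promoter table of GRCm38.p6, each 300 bases long with 250 before the start and 50 from it. They are shown because Gata2, a GATA factor, was higher in one group than in the others, while Gata1 stayed under the filter. The core letters GATAA, searched on both strands, occur in 4 of the 7, against 25.4% of 32851 promoters of that length. CACCC, the core of sites of the Klf1 family, occurs in 6 of the 7 (57.5% of all promoters) and GGAAG, an ETS factor core, in 7 of the 7 (71.4%). None of the GATAA matches overlaps a match of the other motifs. The match in Gp9 begins 43 bases before the start, that in Epor 54 and that in Klf1 80 bases before it, and that in Pf4 lies 37 bases after the start. Such a match is a description of letters, not of a site in use. The 4 regions with GATAA are Pf4 (chr5:90772185-90772484 on the plus strand), Gp9 (chr6:87777820-87778119 on the plus strand), Epor (chr9:21963527-21963826 on the minus strand) and Klf1 (chr8:84901732-84902031 on the plus strand). Each is written 5′ to 3′ along its gene, with GATAA, or TTATC where it lies on the other strand, in capitals.
Pf4: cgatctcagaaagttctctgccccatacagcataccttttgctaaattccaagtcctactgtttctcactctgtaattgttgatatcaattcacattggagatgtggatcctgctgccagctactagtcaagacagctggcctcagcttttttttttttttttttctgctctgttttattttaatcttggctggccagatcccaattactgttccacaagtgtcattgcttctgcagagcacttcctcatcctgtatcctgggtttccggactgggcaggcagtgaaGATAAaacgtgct
Gp9: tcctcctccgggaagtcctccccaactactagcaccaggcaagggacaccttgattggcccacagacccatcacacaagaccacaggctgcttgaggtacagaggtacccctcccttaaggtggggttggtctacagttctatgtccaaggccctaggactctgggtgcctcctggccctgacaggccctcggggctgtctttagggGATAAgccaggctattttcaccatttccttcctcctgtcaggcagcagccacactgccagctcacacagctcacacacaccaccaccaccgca
Epor: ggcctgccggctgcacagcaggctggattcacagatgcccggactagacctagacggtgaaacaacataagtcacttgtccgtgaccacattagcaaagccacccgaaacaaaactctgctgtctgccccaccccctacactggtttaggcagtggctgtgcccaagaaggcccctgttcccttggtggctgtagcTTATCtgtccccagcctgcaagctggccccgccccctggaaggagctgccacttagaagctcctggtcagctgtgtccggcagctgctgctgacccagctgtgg
Klf1: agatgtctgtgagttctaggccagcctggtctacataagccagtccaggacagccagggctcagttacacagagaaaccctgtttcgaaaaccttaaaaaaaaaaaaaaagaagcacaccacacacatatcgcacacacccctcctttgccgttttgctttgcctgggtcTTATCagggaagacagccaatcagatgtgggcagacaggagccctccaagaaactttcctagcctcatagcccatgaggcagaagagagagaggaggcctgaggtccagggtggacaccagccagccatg
The other regions, of Itga2b, Gata1 and Gp1bb, hold no GATAA. Only GATAA was searched, so GATA followed by another letter was not counted in any region. Vwf and Car1 are named only.

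Vwf, the large adhesive protein of platelet alpha granules and of endothelium that tethers platelets at a wound, was the member with the widest range between groups. Its signal was 8.16, 8.10 and 8.41 on the MDSC arrays, against 5.99, 6.01 and 6.19 on RB, 6.39, 6.03 and 6.09 on GFW, 6.22, 6.28 and 6.20 on GFK, and 5.83, 5.69 and 5.70 on GFE. All 3 MDSC arrays lay above all 12 others, and the GFE arrays lay below the rest. The range between the highest and lowest group mean was 2.49 log2, wider than for 90.8% of genes tested, where the median gene had 0.88. MDSC exceeded GFW 4.16-fold (2.06 log2, SE 0.12, limma adjusted p = 5.37e-10) and RB 4.48-fold (2.16 log2, SE 0.12, limma adjusted p = 4.43e-10). After culture with SCF and Flt3 ligand Vwf fell by 0.43 log2 against GFW (SE 0.12, limma adjusted p = 0.00467). RB and GFK did not differ from GFW beyond the spread (-0.11 with a 95% interval from -0.36 to 0.14, and 0.06 with -0.19 to 0.31).

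**Figure D1:**
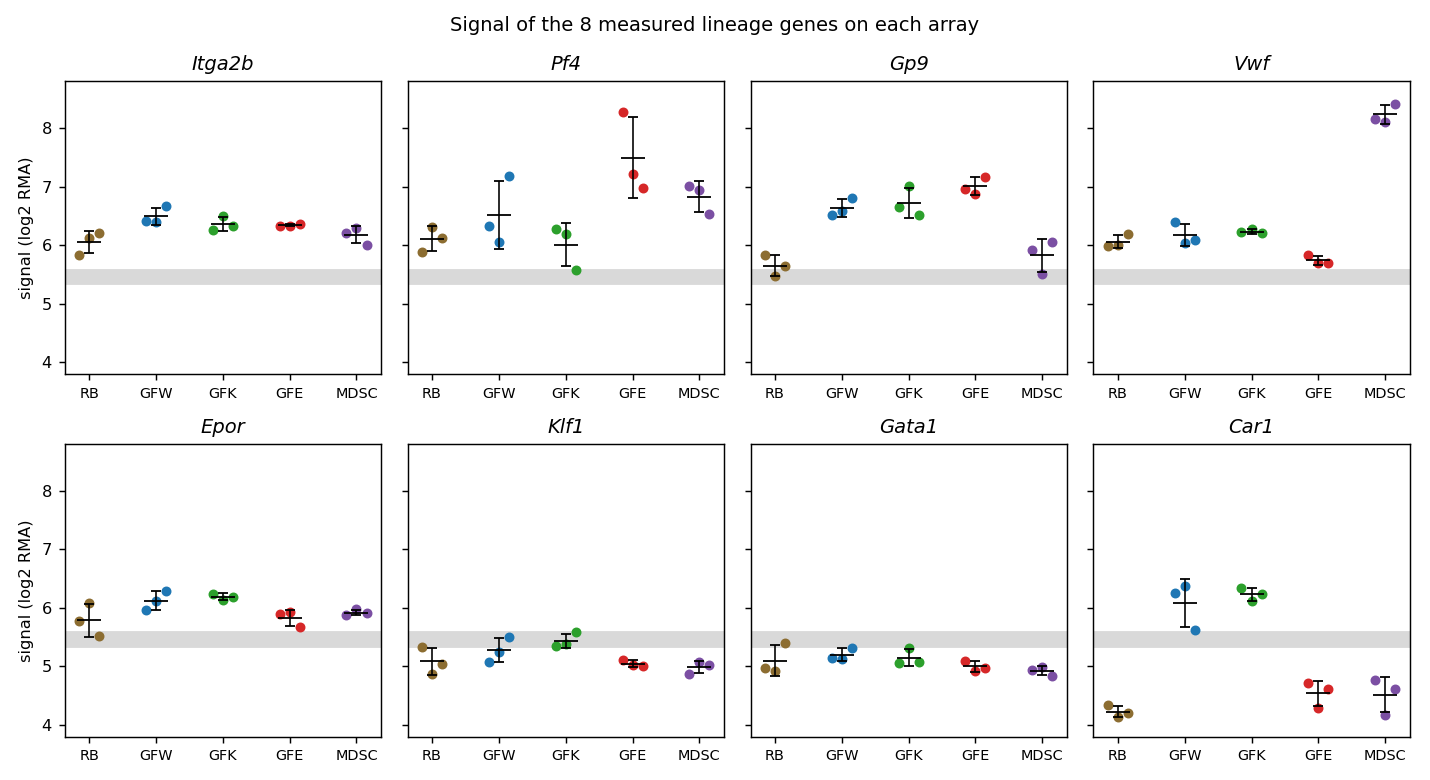
Signal of each of the 8 measured genes, in log2 RMA units, for the 3 arrays of each of 5 groups. Points are arrays, the long black bars are group means with error bars of 1 SD, and the grey band is the 40th percentile of probe sets used as the filter (5.34 to 5.58 over the arrays). Vwf stands out in MDSC, Car1 in GFW and GFK, and Klf1 and Gata1 lie at or under the band in every group.

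Markers of other cell types differed in both directions between MDSC and GFW. Of 10 endothelial genes, a list added after the values were seen, 1 was higher and 4 lower than in GFW. The higher one was Pecam1, an adhesion molecule that platelets and leukocytes share with endothelium (9.47 to 9.85 in MDSC, 7.29 to 7.62 in GFW). Cdh5, the cadherin of endothelial junctions, was not called (-0.02), and the means of 6 of the 10 genes lay under the 40th percentile in MDSC. The mean level of that list was 5.76 to 5.81 on the MDSC arrays and 5.79 to 5.80 on the GFW arrays. Of 4 tested mast cell and basophil genes 2 were higher and 1 lower, and of 6 tested eosinophil genes 4 were higher and 2 lower. Of all genes 32.3% were higher and 30.0% lower in this comparison. Cpa3 and Ear6, both higher, passed the filter on 4 and 3 arrays that include all of MDSC, and none of GFW. Ccr3, lower, passed only through GFW and GFK, so these 3 differences were built into their being tested. The higher ones included the basophil protease Mcpt8 (8.04 to 8.14 in MDSC, 5.41 to 6.82 in GFW) and the eosinophil granule protein Prg2 (8.67 to 9.41, and 5.12 to 6.06). Others were lower: Hdc, the histamine-forming enzyme of basophils and mast cells (6.48 to 6.59 in MDSC, 11.48 to 11.68 in GFW), Siglecf (5.84 to 5.91, and 8.77 to 8.93) and Ccr3, which was near background in MDSC. The mean level of the mast cell and basophil list was 5.33 to 5.45 in MDSC and 5.47 to 5.70 in GFW, and that of the eosinophil list 5.88 to 6.19 and 5.75 to 5.83. Their part in the Vwf result was not tested.

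Pf4, the chemokine that platelets release from alpha granules, had its highest mean after culture. It read 8.27, 7.22 and 6.98 on GFE, 7.01, 6.94 and 6.53 on MDSC, 6.33, 6.06 and 7.18 on GFW, 5.89, 6.31 and 6.12 on RB, and 6.27, 6.19 and 5.58 on GFK. GFE replicate 1 and GFW replicate 3 stood apart from their groups, the GFE and GFW ranges overlapped, and no neighbouring groups in the order of means were free of overlap. The pooled SD within groups was 0.46 log2, larger than for 98.9% of genes tested. The signal rose by 0.97 log2 from GFW to GFE (SE 0.31, 95% interval 0.30 to 1.64, limma adjusted p = 0.0136). The call was lost without GFE replicate 1 (0.58, limma adjusted p = 0.0897) and without GFW replicate 2 (0.74, limma adjusted p = 0.0711). MDSC lay above RB by 0.72 (SE 0.31, limma adjusted p = 0.0721) with no overlap of the arrays, and below the threshold with each array minus its median (0.78, limma adjusted p = 0.0441) or with only those 6 arrays in the fit (limma adjusted p = 0.0065).

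Gp9, which encodes the platelet glycoprotein IX that holds the von Willebrand factor receptor together, split the groups in a pair of levels. It read 6.96, 6.88 and 7.17 on GFE, 6.65, 7.01 and 6.52 on GFK and 6.51, 6.58 and 6.80 on GFW, and 5.91, 5.51 and 6.06 on MDSC and 5.83, 5.48 and 5.64 on RB. All 9 arrays of the first 3 groups lay above all 6 of MDSC and RB, while MDSC and RB overlapped. Against GFW it was lower by 0.98 log2 in RB (-0.98, SE 0.16, limma adjusted p = 1.07e-04) and by 0.80 in MDSC (-0.80, SE 0.16, limma adjusted p = 4.37e-04). Tested against a change of 1.5-fold, neither held (limma adjusted p = 0.0867 and 0.312). The rise in culture missed the threshold (0.37, SE 0.16, 95% interval 0.03 to 0.72, limma adjusted p = 0.0505). All 3 GFE arrays lay above all 3 GFW arrays, and the rise was called with each array minus its median (0.51, limma adjusted p = 0.0113), without GFW replicate 3 (0.46, limma adjusted p = 0.0366) and with only those 6 arrays (limma adjusted p = 0.0237).

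Itga2b, the CD41 chain of the platelet fibrinogen receptor and an early mark of megakaryocyte and embryonic blood progenitors, varied little. Its signals were 6.42, 6.40 and 6.66 on GFW, 6.26, 6.49 and 6.32 on GFK, 6.32, 6.32 and 6.36 on GFE, 6.21, 6.30 and 6.01 on MDSC and 5.84, 6.12 and 6.20 on RB. The range between group means, 0.44 log2, was wider than for only 16.3% of genes tested. RB was lower than GFW (-0.44, SE 0.12, limma adjusted p = 0.007) and so was MDSC (-0.32, SE 0.12, limma adjusted p = 0.0334), in both cases without overlap. The MDSC call was lost with each array minus its median (-0.20, limma adjusted p = 0.181) and without GFW replicate 3 (-0.23), MDSC replicate 1 (-0.33) or MDSC replicate 3 (-0.24). GFE lay under GFW on every array, by -0.16 (95% interval -0.42 to 0.10, limma adjusted p = 0.257).

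Among the erythroid genes, Car1, the carbonic anhydrase that appears in early red cell precursors, had the clearest pattern. It read 6.25, 6.38 and 5.62 on GFW and 6.34, 6.12 and 6.24 on GFK. Its signals were 4.72, 4.3 and 4.61 on GFE, 4.77, 4.18 and 4.61 on MDSC and 4.34, 4.14 and 4.20 on RB. The 6 arrays of GFW and GFK lay above all 9 others, and GFE, MDSC and RB each overlapped their neighbour. The group means of these 3 ranked at or under percentile 22.4 of probe sets, near background, so each fold is a lower bound. Relative to GFW, Car1 was at least 2.91-fold lower in GFE (-1.54 log2, SE 0.19, limma adjusted p = 2.43e-06), at least 3.62-fold in RB (-1.86, SE 0.19, limma adjusted p = 7.70e-07) and at least 2.96-fold in MDSC (-1.56, SE 0.19, limma adjusted p = 2.41e-06). These 3 differences share the GFW arrays. Each was called under all 12 alternatives. Car1 passed the filter only through GFW and GFK, so a difference from the other groups was built into its being tested.

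Epor, the erythropoietin receptor, was called in none of the 5 comparisons. It read 6.24, 6.13 and 6.19 on GFK, 5.97, 6.11 and 6.28 on GFW, 5.88, 5.98 and 5.91 on MDSC, 5.89, 5.93 and 5.67 on GFE and 5.77, 6.08 and 5.52 on RB, and each group overlapped its neighbours in this order. RB came closest to a call against GFW (-0.33, SE 0.13, limma adjusted p = 0.0503). That difference was called without RB replicate 2 (-0.48, limma adjusted p = 0.00651) and without GFW replicate 1 (-0.41, limma adjusted p = 0.0353). All 3 GFE arrays lay under all 3 GFW arrays, by a mean of 0.29 (-0.29, SE 0.13, limma adjusted p = 0.0663), and without GFW replicate 1 this was called (-0.37, limma adjusted p = 0.0428).

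Gata1, the transcription factor both lineages depend on, stayed under the filter on all 15 arrays. It read 5.14, 5.13 and 5.32 on GFW, 5.06, 5.32 and 5.08 on GFK, 4.98, 4.92 and 5.40 on RB, 5.09, 4.93 and 4.97 on GFE and 4.94, 4.99 and 4.84 on MDSC. All neighbouring groups overlapped, and the range of group means was 0.27 log2. Klf1, the red cell Krüppel-like factor, passed the filter value on 1 array. Its signals were 5.35, 5.39 and 5.58 on GFK, 5.08, 5.25 and 5.5 on GFW, 5.34, 4.88 and 5.05 on RB, 5.11, 5.03 and 5.0 on GFE and 4.87, 5.07 and 5.03 on MDSC. Fitted without a filter, neither gene was called in any comparison, with limma adjusted p from 0.101 to 0.97 for Gata1 and from 0.091 to 0.822 for Klf1. At these signals a difference was not detectable, which does not show that the transcripts are absent or equal.

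Counted together, the 6 tested members were read against the share of all genes called in each comparison. From GFW to GFE 1 rose (Pf4), 2 fell (Vwf and Car1) and 3 were not called, where 67.0% of all genes were called in either direction, 35.1% higher and 31.9% lower. From GFW to RB 0 rose and 3 fell (Itga2b, Gp9 and Car1), with 52.4% of all genes called, 25.8% higher and 26.5% lower. At an unadjusted p under 0.05 in limma 0 rose as well, beside 4151 of all 14822 genes. From GFW to MDSC 1 rose (Vwf) and 3 fell (Itga2b, Gp9 and Car1), with 62.2% called, 32.3% higher and 30.0% lower. Car1, counted as lower in GFE, RB and MDSC, passed the filter only through GFW and GFK, so its difference was built into its being tested. In MDSC against RB, Vwf was the single call, higher, with 48.1% of genes called and 27.4% higher. On the arrays labelled knockout 0 of the 6 were called by limma at adjusted p under 0.05, against 1.61% of all genes (1.30% higher and 0.317% lower). Also 0 of the 6 had an unadjusted p under 0.05 in limma, where 979 of all 14822 genes were higher and 768 lower. The members' median difference was -0.22 in GFE, -0.43 in RB and -0.26 in MDSC against GFW, beside -0.06, -0.06 and -0.08 for all genes. With each array minus its median, the median of all genes moved to 0.07 in GFE minus GFW and 0.04 in MDSC minus GFW. That scaling turned the split of calls from 5198 higher and 4733 lower to 5783 and 3286 in the first, and from 4781 and 4444 to 5306 and 3094 in the second. Differences of a size near that shift, such as those of Itga2b and Epor, are to be read with it.

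**Figure D2:**
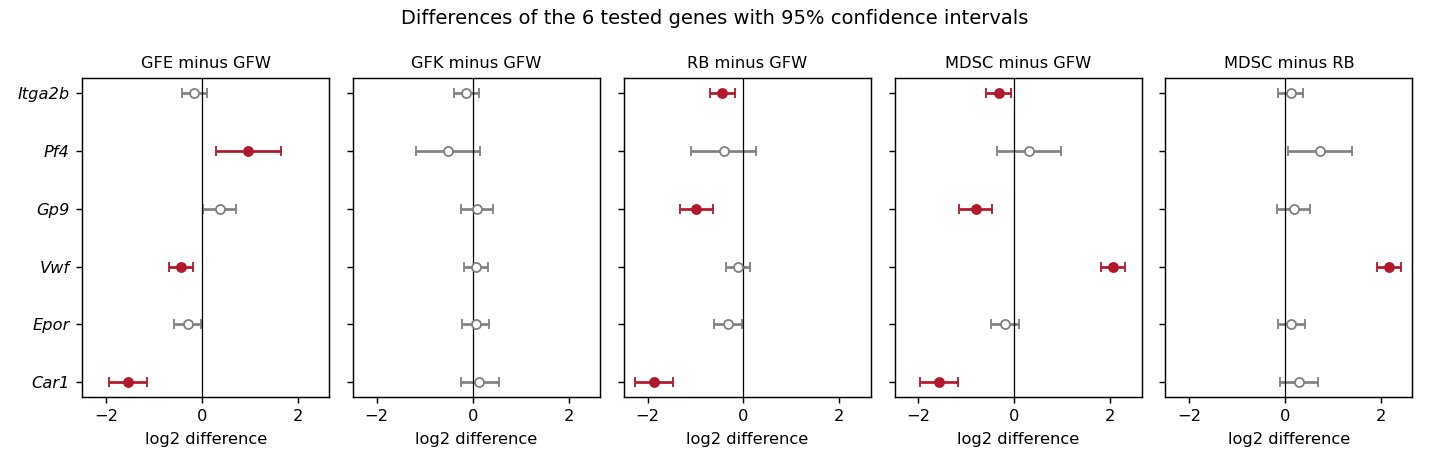
Difference in log2 signal for each of the 6 tested genes in the 5 comparisons, with 95% confidence intervals from the limma fit of all 15 arrays. Filled red points were called at an adjusted p under 0.05 and open grey points were not. Vwf in MDSC (2.06 and 2.16) and Car1 against GFW (-1.54, -1.86 and -1.56) lie farthest from 0, and no gene was called in GFK minus GFW.

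On the arrays labelled iNOS knockout, no tested member was called against GFW, and the interval for Pf4 was wide. The differences were -0.13 for Itga2b (95% interval -0.39 to 0.13), -0.51 for Pf4 (-1.18 to 0.16) and 0.09 for Gp9 (-0.25 to 0.43). They were 0.06 for Vwf (-0.19 to 0.31), 0.07 for Epor (-0.22 to 0.35) and 0.14 for Car1 (-0.25 to 0.54). In this comparison 192 genes were higher and 47 lower over all. Of 20 other platelet genes tested, the tetraspanin Cd9 alone was called (0.74, SE 0.15, limma adjusted p = 0.0201). At an unadjusted p under 0.05 in limma 6 were higher and 2 lower, beside 979 and 768 of all 14822 genes. Those 6 include Ppbp, Mmrn1 and Angpt1, which passed the filter on 3, 3 and 6 arrays, none of them of GFW. By limma 0 of 21 other erythroid genes, 0 of 9 haem synthesis genes and 0 of 17 regulators were called, and at an unadjusted p under 0.05 there were 1, 3 and 1.

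The partners of Gata1 were a different matter after culture. Of 17 transcription regulators of these lineages, 12 rose from GFW to GFE, 2 fell and 3 were not called (median 0.90, beside -0.06 for all genes). Of all genes 35.1% rose and 31.9% fell. Gata2, the GATA factor of early progenitors, read 8.51, 8.65 and 8.5 on GFE and 5.95, 6.06 and 6.39 on GFW, a 5.36-fold rise (2.42 log2, SE 0.12, limma adjusted p = 7.67e-11). It read 6.06 to 6.19 on GFK, 5.29 to 5.54 on RB and 5.78 to 5.95 on MDSC, lower than GFW in RB (-0.69). The MDSC difference was near the threshold with overlapping arrays (-0.30, limma adjusted p = 0.0446) and was not called without the filter on low signals (limma adjusted p = 0.0611). Myb, needed by immature haematopoietic cells, rose 12.7-fold and Meis1, a homeobox factor of stem cells and megakaryocytes, 11.4-fold. Zfpm1, the FOG1 cofactor of Gata1, rose by 1.25 log2 (SE 0.15, limma adjusted p = 1.80e-06), Gfi1b, a repressor needed for both lineages, by 1.36, Lmo2 by 1.21 and Tal1 by 0.90. Klf3, a repressor that binds CACCC sites, fell by 2.25 log2, and Nfe2, the factor of late megakaryocytes and globin control, by 0.42. Tested against a change of 1.5-fold, 8 stayed higher and 1 lower, and with each array minus its median 13 were higher and 1 lower. With each array minus its median 5783 of all genes were higher and 3286 lower, and the all-gene counts against 1.5-fold are given below.

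**Figure D3:**
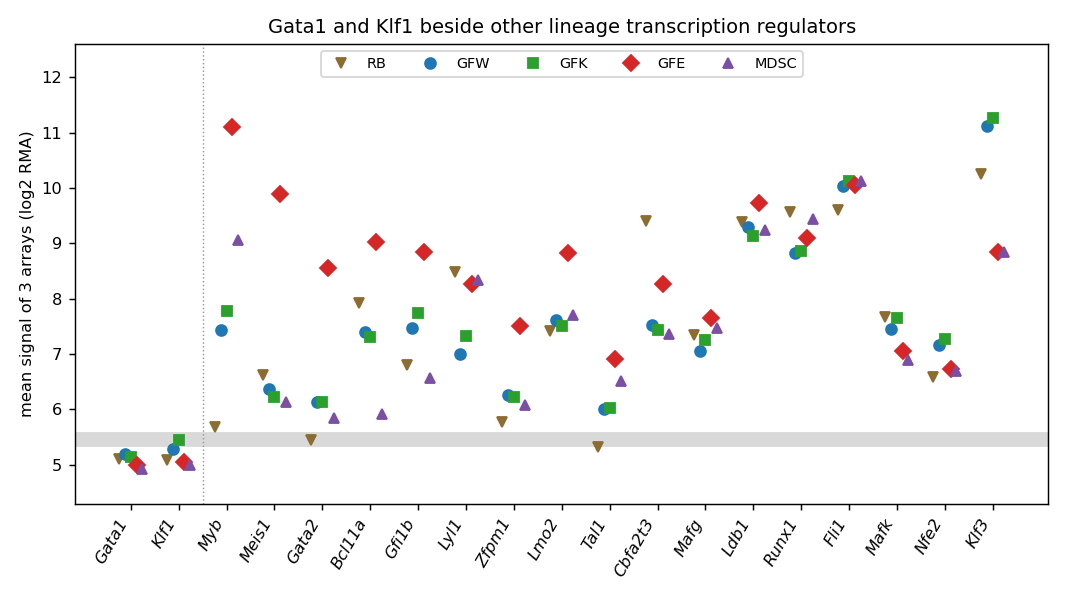
Mean signal of 3 arrays, in log2 RMA units, for Gata1 and Klf1 (left of the dotted line) and 17 other transcription regulators, ordered by the difference GFE minus GFW, with 1 symbol per group and the filter band in grey. Levels are to be compared within a gene and not between genes. The GFE diamonds stand above the other groups for Gata2 (8.56 against 6.13 in GFW), Zfpm1, Gfi1b, Lmo2 and Tal1, while all groups sit at or under the band for Gata1 and Klf1.

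RB and MDSC differed from this. Against GFW, 3 of the 17 regulators were higher and 8 lower in RB, beside 25.8% and 26.5% of all genes. Cbfa2t3 (1.87) and Lyl1 (1.49) were higher, and Myb (-1.75), Klf3 (-0.85), Tal1 (-0.70), Gfi1b (-0.67), Nfe2 (-0.58) and Zfpm1 (-0.47) lower. For Tal1 the RB signal was near background, so its difference is a lower bound. The higher count was 5 without GFW replicate 3 and 5 with each array minus its median. In MDSC 5 were higher and 6 lower, near the shares of all genes (32.3% and 30.0%). Myb (1.63), Lyl1 (1.33) and Tal1 (0.51) were among the higher, and Klf3 (-2.26), Bcl11a (-1.48), Gfi1b (-0.91) and Nfe2 (-0.45) among the lower. MDSC minus RB showed 5 higher and 5 lower, beside 27.4% and 20.7% of all genes. Myb (3.38) and Tal1 (1.21) were among the higher and Cbfa2t3 (-2.03) among the lower.

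Of the other megakaryocyte and platelet genes, 20 of 28 listed were tested. From GFW to GFE 9 rose and 7 fell (median -0.06, the same as all genes), and the lower count was 4 with each array minus its median. Of all genes 35.1% rose and 31.9% fell. Mmrn1, among the 9, passed the filter only on the 3 GFE arrays. Clec1b and Alox12, among the 7, passed on 9 and 5 arrays, none of them of GFE. The protease inhibitor Ctla2a rose by 4.44 log2 (SE 0.24, limma adjusted p = 2.15e-10), from 5.16 to 6.30 on the GFW arrays to 9.95 to 10.27 on GFE. Angpt1, the angiopoietin ligand of the Tek receptor, went from 5.22 to 5.33 up to 9.63 to 9.72, with GFW near background (at least 4.41 log2). It passed the filter on 6 arrays, those of GFE and GFK, so a difference was built into its being tested. The ADP receptor P2ry12 fell by 4.07 log2, and Rgs18, which dampens G protein signals in platelets, rose by 1.57. Itgb3, which pairs with Itga2b in the fibrinogen receptor and also with the alpha V chain, rose by 0.86 (SE 0.15, limma adjusted p = 1.35e-04), whereas Itga2b itself was not called. Ppbp, a platelet chemokine gene, was not called in any of the 5 comparisons and read 4.67 to 5.63 on all arrays.

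Of the 20 platelet genes, 10 were called lower than GFW in RB and 10 in MDSC, beside 26.5% and 30.0% of all genes. Both counts include Gp5, Angpt1 and Ctla2a, which passed the filter on 3, 6 and 8 arrays, none of them of RB or MDSC. The MDSC count also includes Alox12, which passed on 5 arrays, none of them of MDSC. In RB 3 were higher and 7 were not called (median -0.38), where Selp, the P-selectin of alpha granules and endothelium, fell by 2.19 log2 and Cd9 by 1.69, while F2rl2, a thrombin receptor, was higher by 1.48. In MDSC 5 were higher and 5 were not called (median -0.31), and the lower count was 6 without GFW replicate 3. There P2ry12 (-3.78) and Selp (-2.09) were lower and F2rl2 (2.05), Cd9 (1.94) and Itgb3 (1.34) higher. Gp5, the receptor subunit beside Gp9, had group means under the 40th percentile in all 5 groups and passed the filter on 3 arrays, none of them of RB or MDSC, so its differences are not read. It lay between 4.64 and 5.69 over all arrays. Gp1ba had no probe set of a single gene. In MDSC minus RB 5 were higher and 1 lower of the 20, beside 27.4% and 20.7% of all genes, led by Cd9 (3.62) and P2ry12 (-3.24). Tested against 1.5-fold, the lower count of the 20 was 3 in GFE, 2 in RB and 2 in MDSC minus GFW. The all-gene counts under that test, given with the processing below, fell too.

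Of 37 other erythroid genes 21 were tested, and the alpha and beta globins Hba-a1, Hba-a2, Hbb-bs and Hbb-bt were not among those with a probe set of a single gene. From GFW to GFE 6 rose and 9 fell (median -0.08), beside 35.1% and 31.9% of all genes. Car2, the carbonic anhydrase related to Car1 and shared with many cell types, moved opposite to it: it read 9.88, 9.85 and 9.58 on GFE and 6.44, 6.16 and 5.6 on GFW (3.70 log2, SE 0.21, limma adjusted p = 3.80e-10). Tfrc, the transferrin receptor that dividing cells also carry, rose by 2.81. In RB 2 were higher and 11 lower (median -0.30), beside 25.8% and 26.5% of all genes. Car2 was lower there with Car1 (-1.85, a lower bound since the RB signal was near background). In MDSC 4 were higher and 10 lower (median -0.29), beside 32.3% and 30.0% of all genes, with Tfrc higher by 3.45. The lower count was 3 with each array minus its median and 6 without MDSC replicate 1, 2 or 3 in turn. Tspo2, lower in GFE, RB and MDSC, passed the filter on 3 arrays, none of them of these groups. Gypc, higher in GFE, RB and MDSC, passed only on the 9 arrays of these groups, so its differences were built into its being tested. Car2 and Samd14, lower in RB, passed on 12 and 5 arrays, none of them of RB. Tested against 1.5-fold, 0 erythroid genes were lower in GFE, 1 in RB and 0 in MDSC, and 3, 0 and 1 were higher. These counts are to be read beside the all-gene counts under that test, which fell too and are given below. Slc4a1, the band 3 anion exchanger of red cells, read 5.73 to 6.69 over all arrays, and Rhag, of the red cell Rh complex, lay between 4.10 and 4.81, under the filter.

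**Figure D4:**
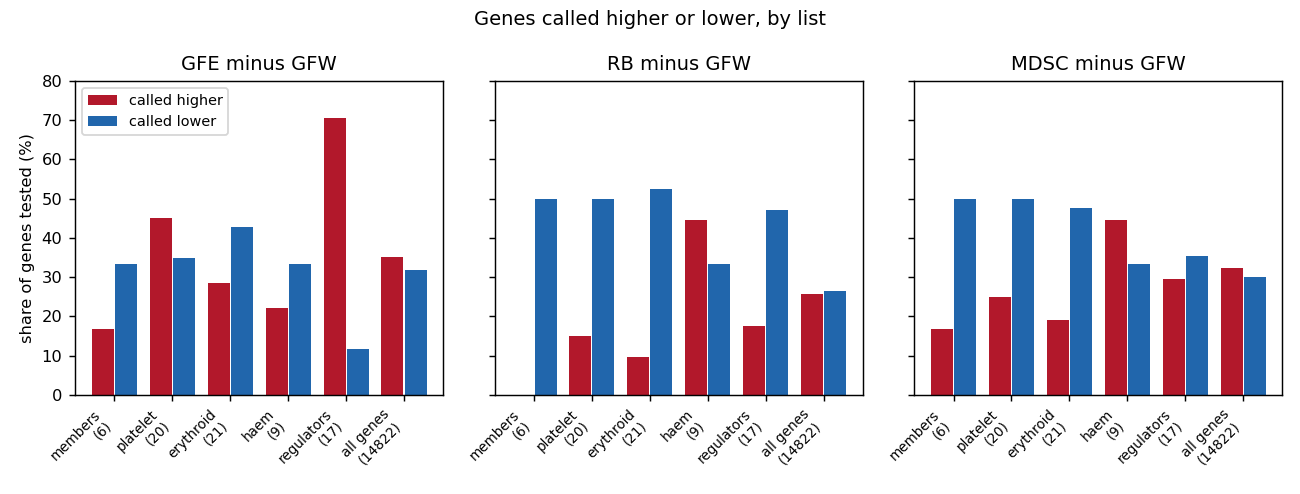
Share of the genes tested, in percent, that were called higher (red) or lower (blue) in 3 comparisons that share the GFW arrays, for the members, 4 further lists and all genes tested, with the number of genes tested in brackets. Among the lists drawn, the regulators in GFE minus GFW stand out with 12 of 17 higher, beside 35.1% of all genes. The early progenitor genes, not drawn, had 7 of 8 tested higher in that comparison.

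Markers of other cells moved beside these results. From GFW to GFE 7 of 8 tested progenitor genes rose and 1 fell, with Cd34 (4.10) first, and 9 of 9 neutrophil genes fell. Mecom, among the 7, passed the filter only on the 3 GFE arrays, so its rise was built into its being tested. Ly6g, Camp and Retnlg, among the 9, passed on 12, 12 and 9 arrays, none of them of GFE. Of all genes 35.1% rose and 31.9% fell. The mean level of the progenitor list was 8.57 to 8.72 on GFE and 7.06 to 7.18 on GFW, and that of the neutrophil list 5.49 to 5.71 and 11.07 to 11.15. In RB 8 of 8 monocyte genes were higher and 7 of 9 neutrophil genes lower than in GFW, beside 25.8% and 26.5% of all genes. Kit was lower by 5.92 log2 (-5.92), and the eosinophil genes Siglecf (-3.14) and Ccr3 were lower. Ccr3 was near background in RB (3.53 to 4.24, against 6.29 to 7.17 in GFW) and passed the filter only through GFW and GFK, so it had to differ. The monocyte list stood at 11.32 to 11.46 on RB and 7.56 to 7.73 on GFW, and the eosinophil list at 4.75 to 4.89 and 5.75 to 5.83. The part of these cells in the differences of Car1, Gp9, Pf4 and the regulators was not tested.

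Genes with the most similar course were sought for the 4 members whose group means spanned at least 1 log2, by the root mean square difference of centred signals over 15 arrays. Nearest to Vwf were the junction protein Cldn1 (0.21 log2), the proton channel Hvcn1 (0.22) and the adaptor Stap2 (0.23), each highest in MDSC. Nearest to Gp9 were Med12l and Chsy1 (0.21 each) and the kinesin Kif2a (0.24). Nearest to Car1 were Rdh12 (0.23), Dennd3 (0.24) and Fam122a (0.28), and nearest to Pf4 the calcium channel subunit Cacnb2 (0.30), Spata7 and Timeless (0.33 each). None of these 12 genes belongs to the lists used here.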

How the data were processed

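RNA (6 ug per sample, biotin-labelled cRNA) of 15 samples was read on Affymetrix arrays. The authors made the deposited log2 values with RMA in oligo, per the submitters' processing notes. RMA corrects background, equalises array distributions and summarises probe sets, which compresses differences at low signal. For versions and genome build: not given in the sources used here. Of 41345 probe sets, 23521 had 1 gene symbol, 1814 several and 16010 none. The first kind was used, with 23328 matched to RefSeq by gene identifier and the highest mean taken per gene (22180 genes, 1082 with several probe sets). Tested genes exceeded their array's 40th percentile (5.34 to 5.58) on at least 3 arrays. Depth has no counterpart on arrays, and 3 per group limit the precision.

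One model over the 15 arrays was used in limma 3.58.1 (R 4.3.3) (group means; 5.33 prior and 10 residual degrees of freedom). P-values are 2-sided and Benjamini-Hochberg adjusted over 14822 genes, with calls under 0.05. The fit was tested on simulated data. Tables and figures used Python 3.11.15, pandas 2.3.3 and matplotlib 3.10.9. Alternatives were a fit of only the 6 arrays compared, a replicate block, each array minus its median, no filter, treat, the mean of probe sets and each array left out; for the further lists they were added after the data were seen. Named were all members, up to 4 called genes with the largest difference per list, stated partners of members, markers moving beside a result, and the 3 nearest genes by profile. Markers and list genes named beyond that rule were chosen after their values were seen. The members and lists were chosen with earlier results of these data known.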

Additional observations from a re-analysis of the deposited data

How the results depend on the processing

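No called difference of a member changed direction under any alternative, and the cause of a lost call was not tested. Tested against 1.5-fold, the calls of Pf4 and Vwf in GFE, and of Itga2b and Gp9 in RB and MDSC, were lost. Against a null of 1.5-fold (treat), the members called from GFW to GFE were 0 higher and 1 lower, and 1 was lower in each of RB and MDSC minus GFW. Under treat the lower member was always Car1, which passed the filter only through GFW and GFK. All-gene counts then fell to 2808 higher and 1425 lower in GFE, 14 and 0 in GFK, 1198 and 727 in RB and 2456 and 1193 in MDSC minus GFW, and 1449 and 1008 in MDSC minus RB. With only the 6 arrays compared, 2 members were higher in GFE and 2 in MDSC minus RB, and GFK minus GFW had 72 genes higher and 2 lower. With each array minus its median, 2 members were higher in GFE and 2 in MDSC minus RB, and 29 genes were lower in GFK. The mean of all probe sets gave 2 higher members in GFE, and 30 genes were lower in GFK without a filter. With each array left out, the members called ran from 0 to 2 higher and 2 to 3 lower in GFE, 3 to 4 lower in RB and 2 to 3 lower in MDSC minus GFW, and GFK minus GFW ran from 102 to 150 genes higher and 27 to 42 lower. The replicate block changed no call of a member (Pf4 in GFE minus GFW, 0.97, limma adjusted p = 0.0167). Same-numbered arrays correlated at -0.04 to 0.04 in their deviations, so no shared effect of the number was seen. Whether same-numbered samples belong together is not given, and this check cannot decide it. The limits are 3 arrays a group and signals near background for Gata1, Klf1 and, outside GFW and GFK, Car1.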

Other observations

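Genes of haem synthesis, which red cell precursors need in bulk and every respiring cell needs in part, changed in both directions. From GFW to GFE 2 of 9 rose and 3 fell, beside 35.1% and 31.9% of all genes. Cpox (1.78 log2, SE 0.23, limma adjusted p = 4.80e-06) and Alad (1.5) rose, and the glycine importer Slc25a38 (-1.77) and the rate-limiting enzyme Alas1 (-1.20) fell. In RB 4 were higher and 3 lower than in GFW, beside 25.8% and 26.5% of all genes. In MDSC the counts were also 4 and 3, beside 32.3% and 30.0%, and Cpox was higher in both groups (1.08 and 1.74). Alas1 was lower in RB (-1.32), and MDSC stood above RB by 1.73. The erythroid form of that enzyme, Alas2, had no probe set of a single gene.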
